A study of Homo sapiens with 26 samples.

Results

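BCL2, BCL2L1, MCL1, BAX, BAK1, BBC3, PMAIP1, BCL2L11 and BIK of the BCL2 family, together with XAF1, were followed through a set of knockdown and overexpression experiments in esophageal squamous cell carcinoma (ESCC) cell lines. They were found by gene symbol, and all 10 were present among the 26485 symbols that each of the 5 deposited expression tables holds. The study had asked how BRDT, a bromodomain protein normally found in male germ cells, acts with TP63, the master transcription factor of squamous epithelium. RNA-seq was made from 26 libraries in 11 groups of 3 established ESCC lines. KYSE180 and TE6 express BRDT, and KYSE150 has little or none of it. In KYSE180, BRDT knockdown (siBRDT, n = 3) was set against a control siRNA (siCont, n = 3), and in a separate experiment TP63 knockdown (siTP63, n = 2) against its own siCont (n = 2). In TE6, siBRDT (n = 2) and siTP63 (n = 2) were set against the same siCont libraries (n = 2). In KYSE150, siTP63 (n = 2) was set against siCont (n = 2), and in another experiment cells that had received a BRDT plasmid by electroporation (BRDT-OE, n = 3) against cells with the control vector (n = 3). siRNA-treated cells were harvested 48 hours after transfection. The sources do not say which siRNA sequence was used in which library, so that effects of one siRNA and of the loss of its target cannot be told apart, and each group is a whole transfected culture of 1 line.

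The BCL2 family sets whether mitochondria release cytochrome c. BAX and BAK1 are the effectors that open the outer mitochondrial membrane, BCL2, BCL-XL (encoded by BCL2L1) and MCL1 hold them in check, and the BH3-only proteins PUMA (BBC3), NOXA (PMAIP1), BIM (BCL2L11) and BIK bind and neutralise these guardians. NOXA binds MCL1 preferentially, and MCL1 and BCL-XL are common survival factors of carcinoma cells. XAF1 is an interferon-inducible protein that binds XIAP, the inhibitor of caspases that act downstream of cytochrome c. All values here are transcript levels, and these proteins are also set by turnover and by binding to each other.

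The libraries held 7582089 to 19372441 reads each, and replicates of a group correlated at 0.975 to 0.995 (Pearson, log2 scale). The targeted genes moved with their labels. BRDT fell by 2.75 (KYSE180) and 2.23 (TE6) on the log2 scale after siBRDT and was 10.6 higher after BRDT-OE. TP63 fell by 1.70 in KYSE180 and by 4.45 in TE6 after siTP63. In KYSE150 the TP63 levels of 695 and 729 in siCont and of 170 and 114 after siTP63 did not overlap, but the difference of -2.34 missed the threshold (adjusted p = 0.082). TP63 itself also fell after siBRDT, by 0.58 in KYSE180 and by 1.15 in TE6. Squamous markers were present (summed 1220 to 9830 RPM, reads scaled to library size), against 3.80 to 120 RPM for 6 fibroblast markers, 0.637 to 12.1 RPM for 4 endothelial markers and 6.46 to 111 RPM for 6 leukocyte markers, of which CD68 made up nearly all and PTPRC stayed at or below 0.357 RPM. Of the 10 squamous markers 6 were called lower after siBRDT in KYSE180 (15.8% of all genes were) and 5 in TE6 (18.1%). After siTP63 8 were called lower in KYSE180 (25.7% of all genes) and 8 in TE6 (20.6%). In the other direction, 1 was called higher after siBRDT in TE6 and 1 after siTP63 in KYSE180. After BRDT-OE 3 were higher and 1 lower (10.5% and 16% of all genes). CD68 was called lower in all 4 knockdowns of KYSE180 and TE6. Of the endothelial markers 1 passed the filter and was called higher after siTP63 in KYSE180 and TE6, and of the fibroblast markers 1 was called higher after siBRDT in KYSE180 and 1 lower after BRDT-OE. The part of these markers in the results below was not tested. In the KYSE150 siTP63 experiment, siCont replicate 1 and siTP63 replicate 2 lay close to each other for many genes, and same-numbered libraries deviated in opposite directions (r = -0.70 of their deviations from the group means).

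Promoter sequence is shown for BAX, BBC3, PMAIP1 and XAF1, picked after their values were seen from the 7 members called with a change over 1 on the log2 scale. RefSeq (GRCh38.p14) held windows for 8 of the 10 members, and BIK and MCL1 had none. The 250 bases before each annotated start were searched on both strands for 7 short motifs, chosen after the sequences were known, and capitals mark every match. In BAX (chr19:48954625-48954814, plus strand, the stretch before its first annotated exon) and BBC3 (chr19:47232767-47232917, minus strand, likewise) the capitals mark CACGTG, the E-box, with TGACG, the CREB/ATF half-site, in BAX and TGAGTCA, a match to the AP-1 site TGANTCA, in BBC3. In PMAIP1 (chr18:59899746-59899995, plus strand) they mark 4 GC boxes (GGGCGG or its complement) and a CREB/ATF half-site on the other strand. In XAF1 (chr17:6756008-6756030, plus strand) they mark AGTTT and TTTC with any 2 bases between them. This string resembles the interferon-response element, but its spacing is closer than in the interferon core given below, so it is not counted as a match to that element. It lies 27 bases before 1 of the 2 RefSeq starts and inside an exon of transcripts that start further upstream.
BAX: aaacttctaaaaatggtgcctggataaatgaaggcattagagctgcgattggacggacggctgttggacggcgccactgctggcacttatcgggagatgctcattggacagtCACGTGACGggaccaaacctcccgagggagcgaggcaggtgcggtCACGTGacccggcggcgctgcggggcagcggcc
BBC3: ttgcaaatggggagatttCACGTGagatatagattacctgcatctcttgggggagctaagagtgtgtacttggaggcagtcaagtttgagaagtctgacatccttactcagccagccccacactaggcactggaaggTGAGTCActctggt
PMAIP1: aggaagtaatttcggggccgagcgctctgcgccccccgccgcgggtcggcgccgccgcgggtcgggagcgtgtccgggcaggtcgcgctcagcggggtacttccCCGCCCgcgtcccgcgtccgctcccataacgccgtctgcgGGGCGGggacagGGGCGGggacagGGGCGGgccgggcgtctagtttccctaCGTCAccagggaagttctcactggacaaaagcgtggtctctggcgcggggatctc
XAF1: ggaaaactttcAGTTTTGTTTCc

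Of all 35116 RefSeq promoter windows of this length, 0.498% held AGTTT and TTTC with any 2 bases between them, as marked in XAF1. The other shares were 6.34% for CACGTG, 6.57% for TGANTCA, 21.2% for TGACG, 42.6% for GGGCGG and 10.7% for TATAAA, the TATA box. The core of the interferon-response element, GAAA repeated after any 2 bases, stood in 3.02% of the windows and in none of the 8 members. BAX held 4 E-boxes in its whole window, at 138, 93, 45 and 14 bases before the start, and BBC3 held 1 at 232 bases. The AP-1 match of BBC3 lay 113 bases before the start. TATAAA was found only in BCL2L1 among the members, at 208 and 125 bases before 1 of its 2 starts. BAK1 and BCL2L11 shared the GC box with BAX and PMAIP1. The matches are descriptions of sequence, and no factor binding was measured here.

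A gene was called where the adjusted p of limma's moderated test on log2(normalised count + 1) was under 0.05 and the log2 fold change at least 0.5 in size, among genes with a mean normalised count of at least 10. After siBRDT in KYSE180, 3 of 10 members were called, against 30.3% of all genes tested. After siBRDT in TE6, 4 of 9 were called, against 33.7% of all genes. After siTP63 the counts were 8 of 10 in KYSE180 (49.3% of all genes) and 5 of 9 in TE6 (38.9%). XAF1 was tested in the former only because it was high after siTP63, and among the 9 members that passed the filter in both groups 7 were called. These shares lay near the background or above it, and 9 or 10 genes give such a share little precision. With libraries rescaled to equal upper quartiles, the median of all genes after siBRDT in TE6 moved by 0.1 and the genes called lower went from 53.8% of the calls to 41.4%, while 3 members were called higher and 1 lower in both. After BRDT-OE in KYSE150, 2 of 9 were called, both lower (26.5% of all genes were called, and 16% were called lower). In KYSE150 after siTP63 neither any member nor any other of 12335 genes was called by limma (0%). There 2194 genes had an unadjusted p under 0.05, none of them a member, and DESeq2 on the same reads called 461 genes and edgeR 0.

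**Figure D1:**
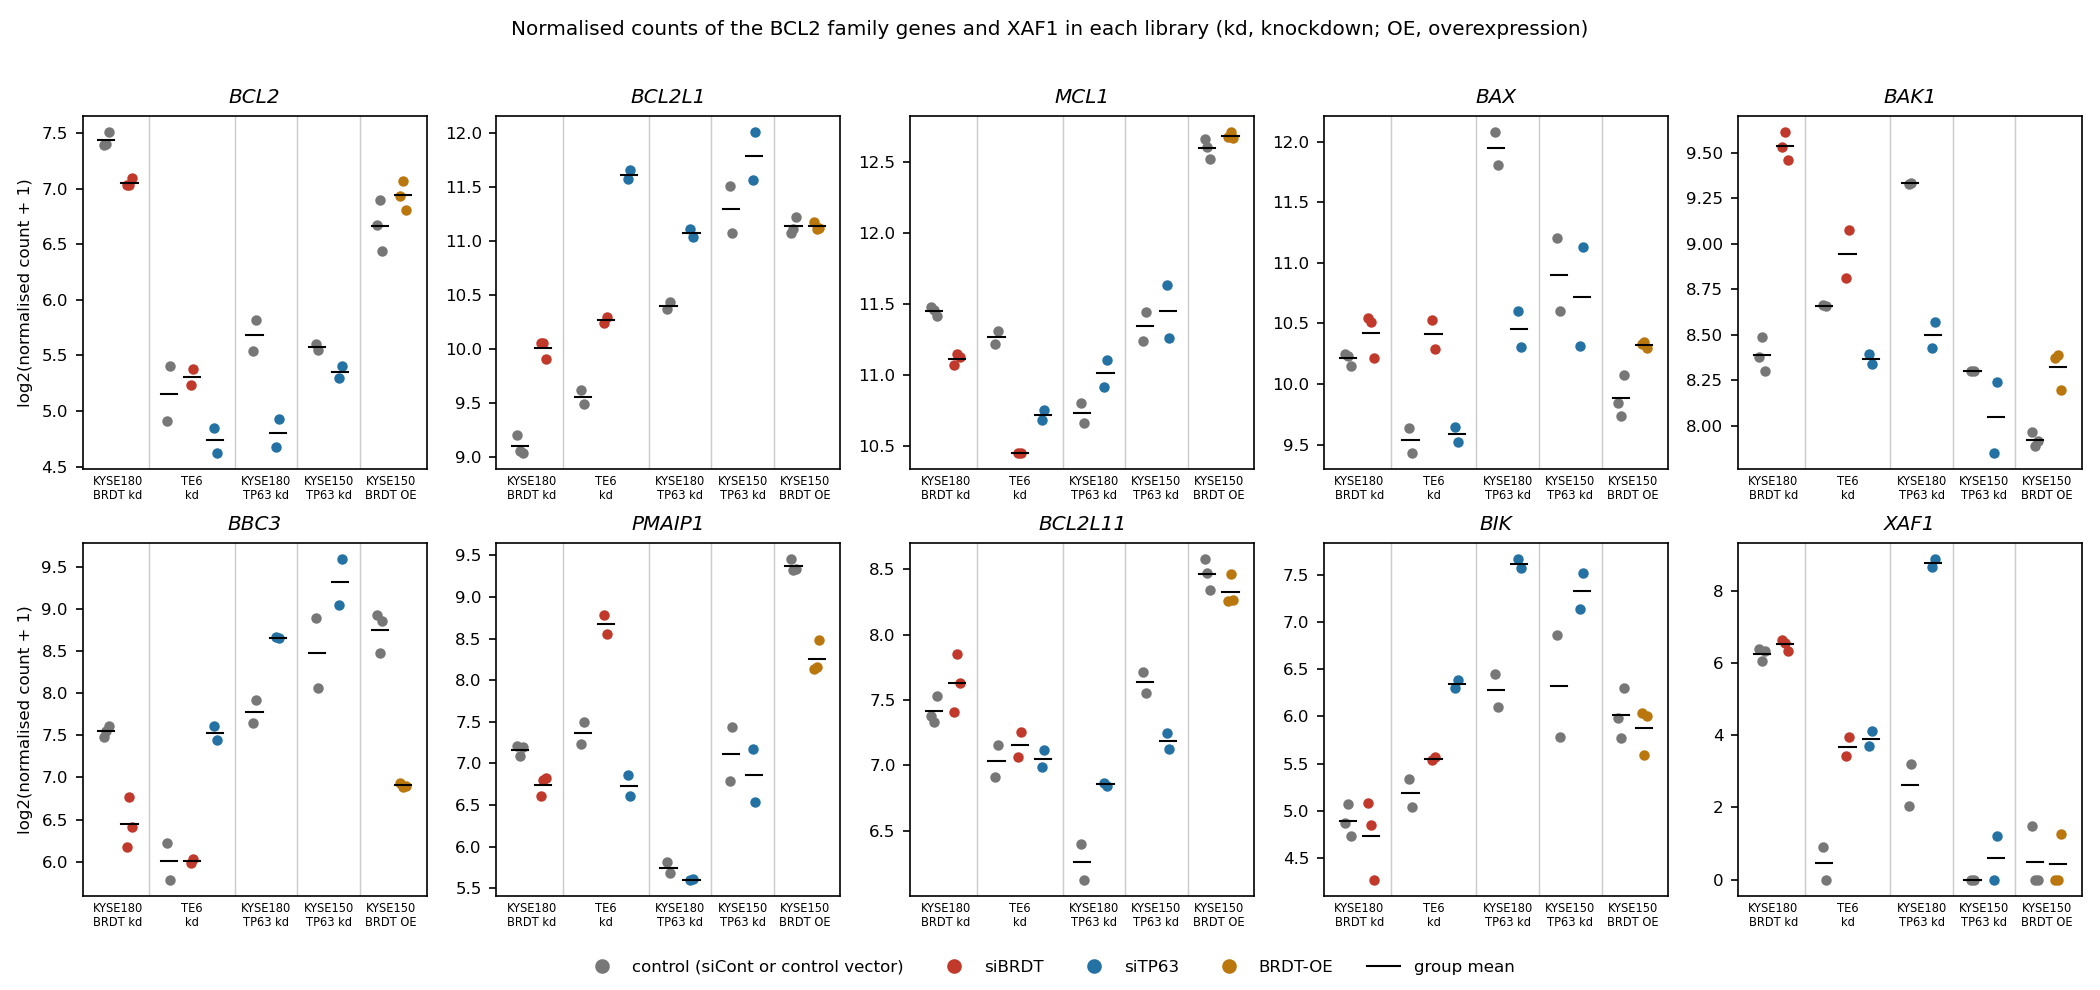
Normalised counts of the 10 genes in each of the 26 libraries (y axis, log2(normalised count + 1)), by experiment (x axis), with 1 point per library and a black line at each group mean. XAF1 goes from 3.15 and 8.21 to 399 and 472 after siTP63 in KYSE180 and lies near 0 in KYSE150, and levels of different experiments come from separately normalised tables.

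**Figure D2:**
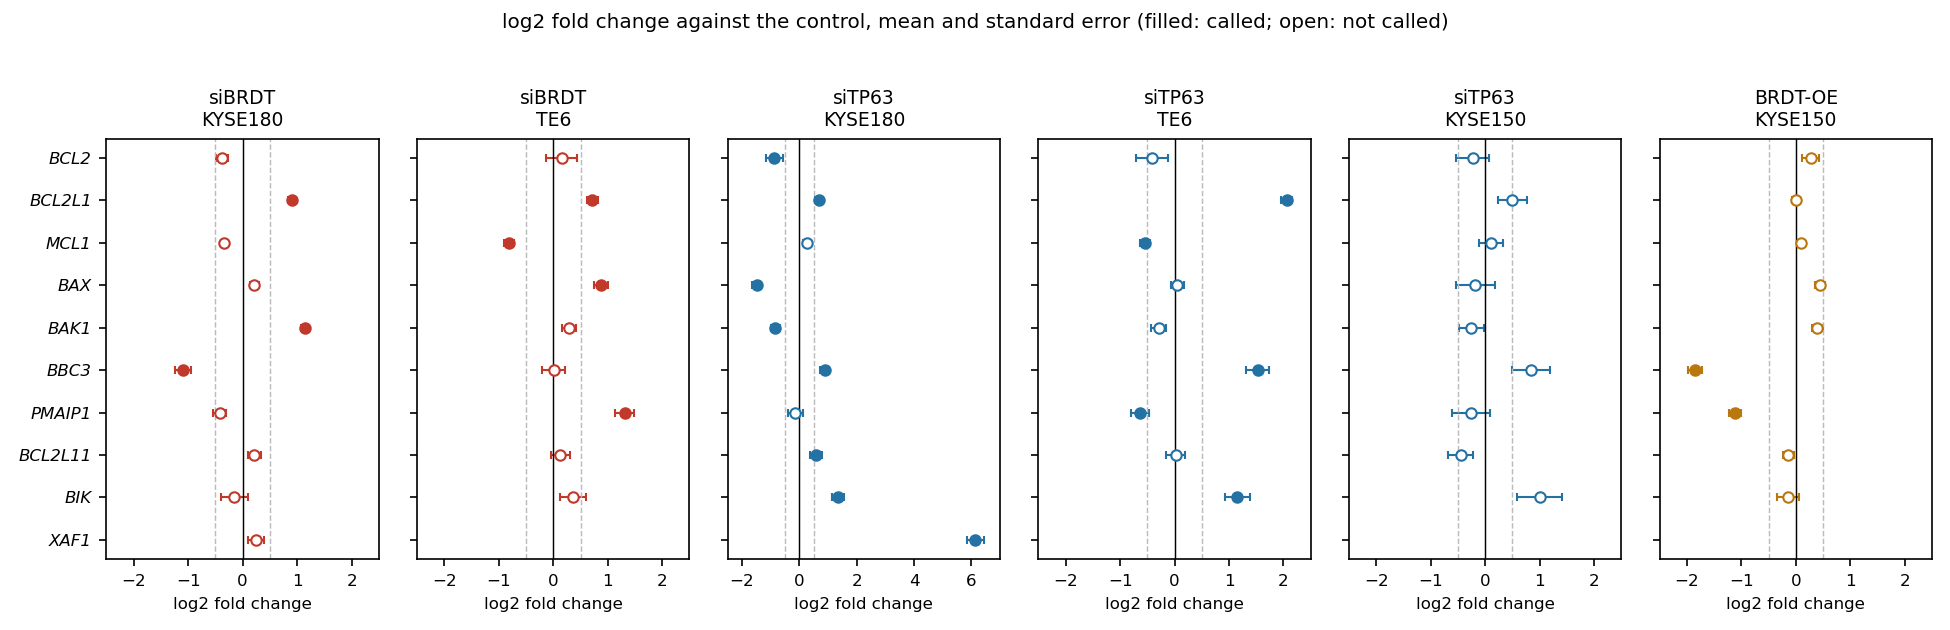
log2 fold change of each gene against its control (x axis) in the 6 comparisons, with the standard error of the fit as bars, filled points for called genes and dashed lines at 0.5 in either direction. BCL2L1 is filled on the right in all 4 knockdowns of KYSE180 and TE6, and the axis of siTP63 in KYSE180 is longer to hold XAF1 at 6.14.

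BCL2L1, which encodes BCL-XL (chr20:31664452-31723989), was the only member called higher in all 4 knockdown comparisons of KYSE180 and TE6. In KYSE180 it stood at 589, 531 and 527 in siCont and at 1066, 1068 and 960 after siBRDT. The groups lay far apart, and the log2 fold change was 0.91 ± 0.07 (SE, adjusted p = 1.2e-07). In TE6 it stood at 788 and 718 in siCont, at 1212 and 1256 after siBRDT and at 3044 and 3229 after siTP63. Both knockdowns raised it, by 0.71 ± 0.10 (adjusted p = 0.00014) and 2.06 ± 0.10 (adjusted p = 2.9e-08), and these share their control libraries. In KYSE180 after siTP63 it went from 1323 and 1385 to 2216 and 2103, a rise of 0.67 ± 0.14 (adjusted p = 0.00018). In KYSE150 it stood at 2925 and 2157 in siCont and at 3029 and 4132 after siTP63, so that the groups did not overlap, but the difference of 0.49 ± 0.27 missed the threshold (adjusted p = 0.39). After BRDT-OE it stayed between 2216 and 2319 against 2152 to 2396 in the control, and the groups overlapped. BCL2L1 overlaps ABALON on the other strand, and the library kit does not mark strand, so reads of the pair cannot be told apart.

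MCL1 (chr1:150560895-150579738) moved the opposite way in TE6. It stood at 2382 and 2535 in siCont, at 1400 and 1400 after siBRDT and at 1645 and 1721 after siTP63. Neither knockdown group overlapped the control, with falls by 0.81 ± 0.10 (adjusted p = 3.9e-05) and by 0.55 ± 0.10 (adjusted p = 0.00046). The latter lay just past the fold limit and was -0.46 with libraries rescaled to equal upper quartiles and -0.44 after correction for transcript length and GC content, under the limit in both. In KYSE180 all 3 siBRDT libraries (2144, 2269 and 2232) lay below the 3 siCont libraries (2845, 2806 and 2729), and the difference of -0.33 ± 0.06 passed the test (adjusted p = 0.00017) but not the fold limit. After siTP63 in KYSE180 MCL1 was 1926 and 2206 against 1788 and 1615 (0.28, adjusted p = 0.094). In KYSE150 it was 3179 and 2454 against 2420 and 2781 after siTP63 and 6519, 6699 and 6499 against 6468, 6232 and 5858 after BRDT-OE, and neither difference passed the test. MCL1 shares its strand with ADAMTSL4-AS1 over part of its length and overlaps ADAMTSL4 on the other strand.

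BCL2 itself (chr18:63123346-63320128) was the lowest of the guardians. In KYSE180 it stood at 45.6 and 55.4 in the siCont libraries of the TP63 experiment and at 24.5 and 29.4 after siTP63. This was its only call, a fall by 0.88 ± 0.29 (adjusted p = 0.012) on 29 to 54 reads a library. The call was lost with DESeq2 (adjusted p = 0.065) and without siTP63 replicate 1. In RPM the fall of BCL2 was smaller, from 2.99 ± 0.50 to 2.30 ± 0.37 (SD, n = 2 each). After siBRDT in KYSE180 it was 130, 130 and 136 against 167, 168 and 181, which passed the test but not the fold limit (-0.38, adjusted p = 0.0058). In TE6 it was 36.7 and 40.6 after siBRDT and 27.9 and 23.7 after siTP63, against 29.0 and 41.3. In KYSE150 it was 38.2 and 41.3 against 47.5 and 45.9 after siTP63, and 121, 134 and 111 against 101, 118 and 85.5 after BRDT-OE. None of these differences in TE6 and KYSE150 passed the test.

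On a scale per transcript length (RPKM), the MCL1 share of the guardian transcripts fell and the BCL2L1 share rose in the knockdowns of KYSE180 and TE6. In TE6 siCont, MCL1 gave 69.6 ± 2.2% (SD, n = 2) of the summed RPKM of BCL2, BCL2L1 and MCL1, and BCL2L1 29.8 ± 2.3%. After siBRDT the shares were 44.5 ± 0.6% and 54.8 ± 0.6%, and after siTP63 27.7 ± 0.2% and 72.1 ± 0.2%. In KYSE180 the MCL1 share went from 76.2 ± 0.7% to 59.3 ± 1.7% (n = 3) after siBRDT. In the TP63 experiment of the same line it was 46.9 ± 2.6% in siCont and 40.5 ± 3.2% after siTP63. MCL1 itself rose on this scale there, from 22.1 to 38.6 RPKM, and BCL2L1 rose more, from 24.6 to 56.3 RPKM. In KYSE150 it was 42.4 ± 7.6% against 36.3 ± 9.2% in the siTP63 experiment, where the spread was as large as the difference, and 65.8 ± 2.3% against 67.1 ± 0.8% in the BRDT-OE experiment. The mean shares moved by more than either SD in all 4 knockdowns of KYSE180 and TE6, least after siTP63 in KYSE180, and no test was made. The KYSE180 siCont share differed by more between the 2 experiments than after siBRDT.

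**Figure D3:**
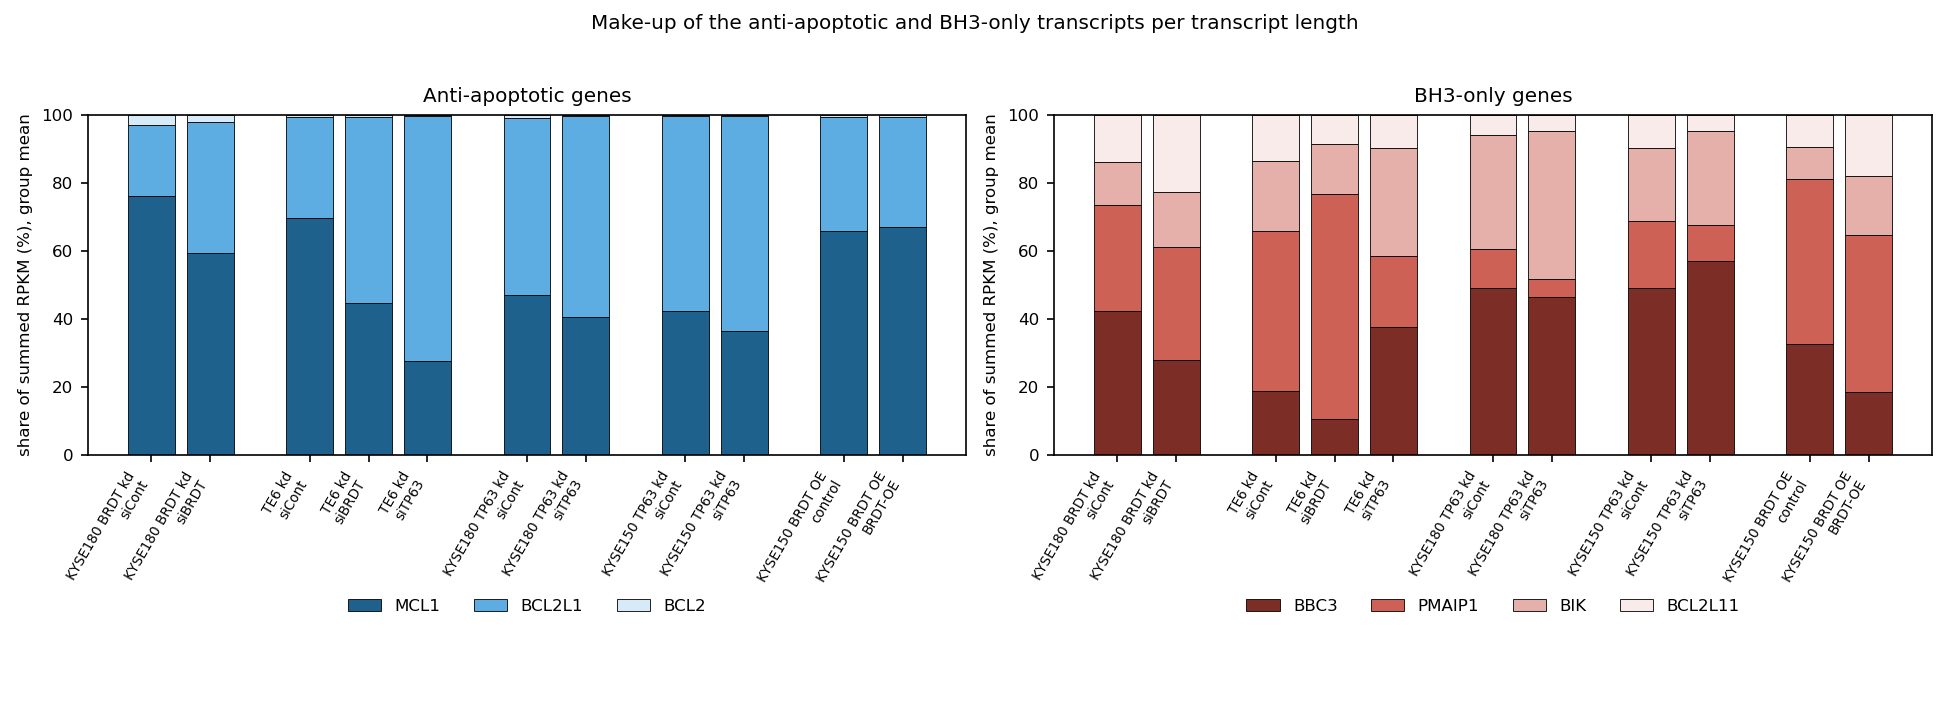
Share of each gene in the summed RPKM of the anti-apoptotic genes (left) and of the BH3-only genes (right), as group means in percent (y axis) by group (x axis; kd, knockdown; OE, overexpression). In TE6 the MCL1 share falls from 69.6% to 44.5% and 27.7%, and the PMAIP1 share goes from 47.0% to 66.0% after siBRDT and to 20.9% after siTP63.

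BAX (chr19:48954815-48961798) changed in opposite directions after siTP63 in KYSE180 and siBRDT in TE6. After siTP63 in KYSE180 it dropped from 4338 and 3590 to 1550 and 1266, a fall by 1.49 ± 0.15 (adjusted p = 6.9e-09). In RPM this fall was smaller, from 234 ± 24 to 119 ± 13 (SD, n = 2 each). After siBRDT in TE6 it went up from 796 and 690 to 1475 and 1252, a rise of 0.87 ± 0.12 (adjusted p = 0.00012). The latter was 0.33 after correction for transcript length and GC content, under the fold limit. After siTP63 in TE6 it was 801 and 735 and overlapped the control. In KYSE180 after siBRDT it was 1489, 1455 and 1187 against 1214, 1204 and 1136, and the overlapping groups differed by 0.21 (adjusted p = 0.039), under the fold limit. After BRDT-OE it was 1289, 1298 and 1256 against 919, 854 and 1078. These groups did not overlap, and the difference of 0.44 ± 0.09 passed the test (adjusted p = 0.0024) but lay under the fold limit. In KYSE150 after siTP63 the order followed the library rather than the group, with 2357 in siCont replicate 1 and 2244 in siTP63 replicate 2 against 1550 and 1271 in the other two.

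BAK1 (chr6:33572547-33580293), the other effector, split KYSE180 by knockdown. After siBRDT it went from 332, 358 and 315 to 739, 784 and 703, the largest rise of a member in that comparison (1.15 ± 0.08, adjusted p = 2.1e-08). After siTP63 it went from 643 and 645 to 344 and 379, a fall by 0.83 ± 0.15 (adjusted p = 3.2e-05). In RPM, which rests on library totals, the fall was smaller, from 38.0 ± 1.2 to 30.7 ± 3.2 (SD, n = 2 each). In TE6 neither difference passed the test, with 449 and 539 after siBRDT (0.28, adjusted p = 0.092) and 336 and 323 after siTP63 (-0.29, adjusted p = 0.076) against 404 and 403. The siTP63 difference in TE6 was -0.60 and called after correction for transcript length and GC content. After BRDT-OE in KYSE150, BAK1 was 331, 335 and 292 against 249, 236 and 241, which did not overlap and differed by 0.40 ± 0.10 (adjusted p = 0.0062), under the fold limit. After siTP63 in KYSE150 it was 230 and 302 against 315 and 315 (adjusted p = 0.61). BAK1 overlaps GGNBP1 on the other strand.

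BBC3 (chr19:47220822-47232766), the gene of PUMA, fell after BRDT knockdown in KYSE180 and rose after TP63 knockdown in KYSE180 and TE6. After siBRDT in KYSE180 it went from 178, 186 and 195 to 71.3, 108 and 84.4, a fall by 1.10 ± 0.14 (adjusted p = 1.1e-05). After siTP63 it went up in KYSE180 from 200 and 240 to 405 and 401 (0.88 ± 0.16, adjusted p = 5.2e-05) and in TE6 from 73.8 and 54.3 to 195 and 173 (1.52 ± 0.20, adjusted p = 6.7e-05). All of these groups lay apart from their controls. Its largest change came after BRDT-OE in KYSE150, from 485, 356 and 462 to 121, 118 and 118, a fall by 1.85 ± 0.13 (adjusted p = 4.6e-06). BBC3 was lower both where BRDT was depleted in KYSE180 and where it was added in KYSE150, which are different lines. In TE6 after siBRDT it was 62.6 and 64.5, within the control's range. After correction for transcript length and GC content that difference was -0.69 (adjusted p = 0.011), and at 69.7% GC BBC3 is the richest of the members in G and C. In KYSE150 after siTP63 it was 529 and 772 against 474 and 266, which did not overlap (0.85, adjusted p = 0.29). In that experiment, where same-numbered libraries deviated in opposite directions, the BBC3 difference ran from 0.43 without siCont replicate 2 to 1.26 without siCont replicate 1.

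PMAIP1 (chr18:59899996-59904305), the gene of NOXA, responded in opposite directions to the 2 knockdowns of TE6. It went from 149 and 179 in siCont to 439 and 376 after siBRDT and to 115 and 96.2 after siTP63. The rise was 1.31 ± 0.17 (adjusted p = 6.7e-05) and the fall 0.63 ± 0.17 (adjusted p = 0.0068). The fall was lost without siCont replicate 2 (adjusted p = 0.10) or siTP63 replicate 2 (adjusted p = 0.086), and the 3 groups of TE6 did not overlap each other. After BRDT-OE in KYSE150 it fell from 704, 639 and 647 to 279, 285 and 356, by 1.12 ± 0.11 (adjusted p = 2.5e-05). In KYSE180 it was 96.9, 110 and 112 against 147, 135 and 145 after siBRDT, which passed the test under the fold limit (-0.42, adjusted p = 0.0062). After siTP63 in KYSE180 it was 47.6 and 47.7 against 55.1 and 50.3 (adjusted p = 0.65). In KYSE150 after siTP63 it was 144 and 91.8 against 110 and 172, with overlapping groups.

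BIK (chr22:43110750-43129712), an endoplasmic reticulum BH3-only protein, rose after siTP63. In KYSE180 it went from 86.5 and 67.8 to 203 and 189 (1.34 ± 0.20, adjusted p = 2.7e-06), and in TE6 from 39.6 and 31.9 to 77.6 and 82.9 (1.15 ± 0.23, adjusted p = 0.0013). In KYSE150 it was 140 and 182 against 116 and 54.2, a difference of 1.00 ± 0.41 that missed the threshold (adjusted p = 0.29). Same-numbered libraries deviated in opposite directions in that experiment, and the BIK difference was 0.46 without siCont replicate 2 and 1.55 without siCont replicate 1. The sign was the same in all 3 lines, with the test passed in KYSE180 and TE6. After siBRDT it was 33.0, 27.8 and 18.3 against 28.2, 32.5 and 25.5 in KYSE180, and 45.3 and 46.6 against the TE6 control, and neither passed the test. After BRDT-OE the groups overlapped at 47.4 to 64.5 against 53.8 to 77.8.

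BCL2L11 (chr2:111119378-111168444), the gene of BIM, was called once, after siTP63 in KYSE180, from 83.4 and 68.8 to 116 and 114 (0.59 ± 0.21, adjusted p = 0.019). That call was lost with DESeq2 (adjusted p = 0.068), with no filter on low values (adjusted p = 0.051), after correction for transcript length and GC content (0.40, adjusted p = 0.089), and without siCont replicate 2, siTP63 replicate 1 or siTP63 replicate 2. In TE6 it stayed between 120 and 152 in all 6 libraries. After siBRDT in KYSE180 it was 169, 230 and 197 against 165, 160 and 184, and after BRDT-OE 305, 352 and 307 against 382, 354 and 323, with overlapping groups in both. In KYSE150 after siTP63 it was 151 and 138 against 209 and 187 (-0.45, adjusted p = 0.36). BCL2L11 overlaps MIR4435-2HG on the other strand.

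XAF1 (chr17:6755447-6775647) gave the largest change of any member. In the TP63 experiment of KYSE180 it was 3.15 and 8.21 in siCont (2 and 8 reads) and 399 and 472 after siTP63 (520 and 594 reads). The control mean of 5.68 lay under the filter on low values, so that XAF1 entered this test only through the siTP63 libraries, and siCont replicate 1 lay under the floor of 3 reads. In a fit with no filter the change was 6.14 (adjusted p = 0.00024), and the ratio of reads summed over each group was 70.0 (95% counting interval 37.9 to 146). In TE6 it held 1 and 0 reads in siCont, 9 and 12 after siBRDT and 18 and 11 after siTP63, under the filter on low values. The ratios of summed reads were 27.4 (4.40 to 1130) and 30.5 (5.06 to 1250), and in a fit with no filter the changes were 3.22 (adjusted p = 0.0031) and 3.45 (adjusted p = 0.0017). The intervals cover counting error only. In KYSE150 it held 0 to 2 reads in each of the 10 libraries, under the same floor of 3 reads (0.155 to 0.396 RPM across all libraries), and no fold is given. After siBRDT in KYSE180 it was 99.0, 92.6 and 80.1 against 83.3, 65.0 and 79.4, overlapping groups that differed by 0.25 (adjusted p = 0.15). The KYSE180 control level itself differed between the experiments, at 2.002 ± 0.26 RPKM in the BRDT experiment (n = 3) and 0.0991 ± 0.0650 RPKM in the TP63 experiment (n = 2).

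A list of 20 interferon-response genes, among them STAT2, MX1 and ISG15, moved in the comparisons where XAF1 did. It also moved after BRDT-OE, where XAF1 was too low to be measured. After siTP63 in KYSE180, 19 of the 19 tested were called higher (23.6% of all genes were), led by IFI27 at 5.28, and their median log2 fold change was 2.88 against 0.00064 over all genes. After siBRDT in TE6, 18 of 19 were called higher (15.6% of all genes), led by ISG15 at 4.43. After siTP63 in TE6, 14 of 19 were called higher (18.3% of all genes), led by IFI6 at 3.90. In KYSE180 after siBRDT, where XAF1 was not called, 4 of 18 were higher (14.5% of all genes) and 2 lower (15.8% of all genes), with IFIT2 at 0.86 and OAS3 at -0.72. After BRDT-OE in KYSE150, 11 of 17 were called lower (16% of all genes), led by IFIT1 at -3.47, while XAF1 was at the floor in both groups. Among the listed genes that passed the filter in both groups, 18 of 18 were called higher after siTP63 in KYSE180, 17 of 18 after siBRDT in TE6 and 14 of 18 after siTP63 in TE6, and 9 of 15 lower after BRDT-OE. In KYSE150 after siTP63, 0 of 14 were called and 7 had an unadjusted p under 0.05 (2194 of all 12335 genes had), with a median of 0.91.

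**Figure D4:**
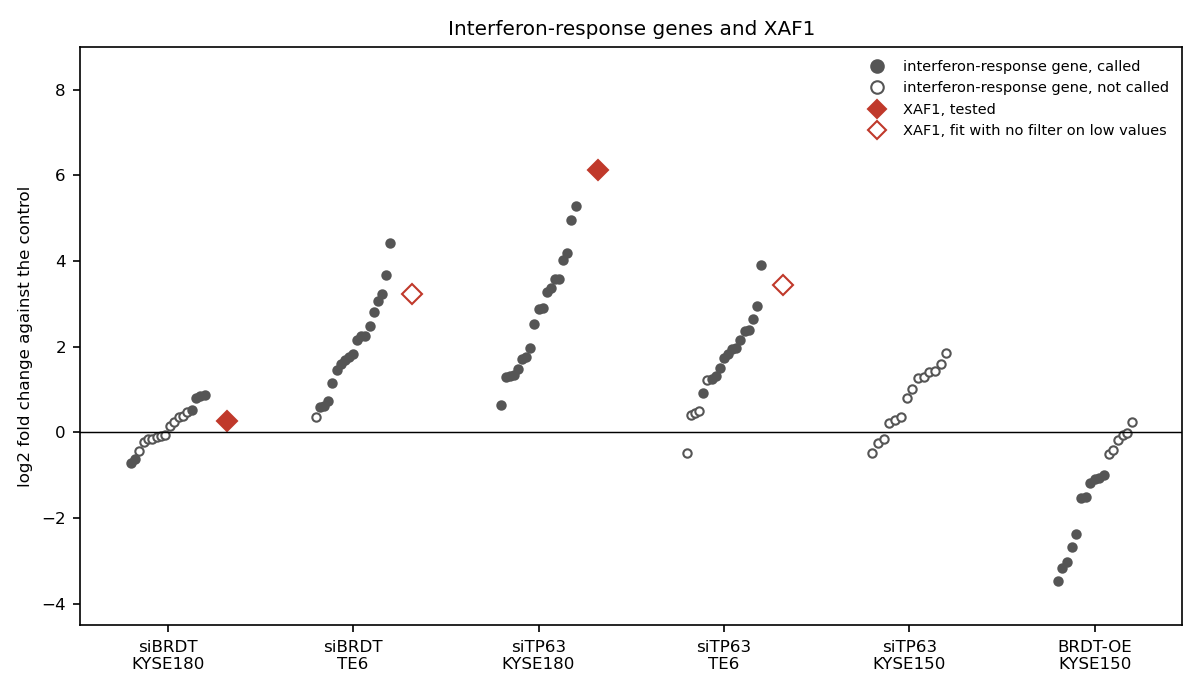
log2 fold change against the control (y axis) of the interferon-response genes tested in each comparison (x axis, grey points in rising order, filled where called), beside XAF1 (red diamond, open where it comes from the fit with no filter on low values). XAF1 is drawn for the 4 knockdowns of KYSE180 and TE6 and lies above every listed gene only after siTP63 in KYSE180.

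Whether a knockdown acted differently in different lines was tested on the difference of the log2 fold changes itself, with adjusted p under 0.05 and no fold limit. For siBRDT, 5 of 9 members differed between KYSE180 and TE6 (41.9% of all genes did, 22.5% upward and 19.4% downward). The effects on BAK1 and MCL1 were higher in KYSE180, by 0.86 ± 0.15 (adjusted p = 0.00017) and 0.48 ± 0.11 (adjusted p = 0.0015), and those on PMAIP1, BBC3 and BAX lower, by -1.73 ± 0.20, -1.10 ± 0.25 and -0.66 ± 0.15. BCL2L1, with 0.91 and 0.71, was not called different (0.20, adjusted p = 0.22). After correction for transcript length and GC content BCL2L1 (0.28, adjusted p = 0.024) and BCL2 (-0.74, adjusted p = 0.020) were called, where BCL2 had been at -0.53 (adjusted p = 0.10). For siTP63, again 5 of 9 differed between these lines (55% of all genes, 26.2% upward and 28.8% downward), with BCL2L1 lower in KYSE180 by -1.38 ± 0.16, BAX by -1.54 ± 0.19, BAK1 by -0.54 ± 0.19 and BBC3 by -0.65 ± 0.26, and MCL1 higher by 0.82 ± 0.16. After correction for transcript length and GC content, the differences of BAK1 and BBC3 after siTP63 turned to 0.073 and 0.39, not called, and those of BAX and BBC3 after siBRDT kept their sign but missed the threshold (adjusted p = 0.061 and 0.052). The siTP63 difference of BAK1 was also lost without KYSE180 siTP63 replicate 1, TE6 siTP63 replicate 1 or either TE6 siCont library (adjusted p = 0.061 to 0.080), and that of BBC3 without KYSE180 siCont replicate 2, TE6 siCont replicate 2 or any 1 of the 4 siTP63 libraries (adjusted p = 0.056 to 0.23). BIK, with rises of 1.34 and 1.15, was not called different (0.19, adjusted p = 0.62), but after that correction its difference was 1.20 and called (adjusted p = 0.0027). The differences of BAX and MCL1 kept their calls there at -0.63 and 0.52. Against KYSE150, BCL2L1 was the 1 member of 9 called different in TE6 (1.56 ± 0.27, adjusted p = 0.015, where 3.86% of all genes were called, 1.66% upward and 2.2% downward), and the call was lost without any 1 of the 4 siCont or siTP63 libraries of TE6 (adjusted p = 0.075 to 0.099). Between KYSE180 and KYSE150, 0 of 9 members were called (1.62% of all genes, 0.849% upward and 0.774% downward), and 3 had an unadjusted p under 0.05: BCL2L11, BAX and BAK1. The same correction made BAX a called difference here (-0.79, adjusted p = 0.039) and MCL1 one between TE6 and KYSE150 (-0.51, adjusted p = 0.038).

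In order to compare the loss of BRDT with the loss of TP63, the siTP63 effect was set against the siBRDT effect within a line. In TE6, where both share their controls, siTP63 libraries were compared with siBRDT libraries directly, and 7 of 9 members differed (39.2% of all genes, 19.3% upward and 19.9% downward). BBC3 (1.52 ± 0.20), BCL2L1 (1.35 ± 0.10), BIK (0.79 ± 0.23) and MCL1 (0.26 ± 0.10, adjusted p = 0.043) were higher after siTP63, and PMAIP1 (-1.94 ± 0.17), BAX (-0.82 ± 0.12) and BAK1 (-0.58 ± 0.13) were lower. MCL1 lost this call under 7 of the other settings (adjusted p = 0.064 to 0.25), among them without either siCont or either siTP63 library, BIK without either siTP63 library (adjusted p = 0.073 and 0.12) and BAK1 without siTP63 replicate 2 (adjusted p = 0.058). In KYSE180, where each knockdown has its own controls, 6 of 10 members differed (65.1% of all genes, 31.3% upward and 33.7% downward), with XAF1 (5.88 ± 0.36), BBC3 (1.97 ± 0.22), BIK (1.497 ± 0.33) and MCL1 (0.61 ± 0.12) higher for siTP63 and BAK1 (-1.98 ± 0.14) and BAX (-1.70 ± 0.16) lower. XAF1 is counted among these 6, but it passed the filter in the TP63 experiment only through the siTP63 libraries. Its siCont mean there was 5.68, so the size of its difference rests on a control near the floor. In both lines BBC3, BIK and MCL1 stood on the higher and BAX and BAK1 on the lower side of siTP63. In KYSE180 the 2 knockdowns came from separate experiments, so that knockdown and experiment cannot be told apart there. After correction for transcript length and GC content BCL2 was called there too (-0.87, adjusted p = 0.0014).

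Other genes of the apoptosis machinery were read as counts of the lists, against shares of all genes called higher and lower of 14.5% and 15.8% after siBRDT in KYSE180, 15.6% and 18.1% in TE6, 23.6% and 25.7% after siTP63 in KYSE180, 18.3% and 20.6% in TE6, and 10.5% and 16% after BRDT-OE. The remaining BCL2 family was given by 12 further genes, of which 7 or 8 passed the filter. BAD, a BH3-only sensitizer, was the leading rise after siBRDT in both KYSE180 (0.51) and TE6 (1.01), where 2 and 3 of 8 were called higher. BMF, another BH3-only gene, rose after siTP63 in KYSE180 (3.13) and TE6 (2.63) and fell after siBRDT in TE6 (-0.75). After siTP63 2 of 7 were called higher and 4 lower in KYSE180, the latter led by BCL2L12 at -1.82, and 4 of 8 higher and 0 lower in TE6. After siBRDT 0 were called lower in KYSE180 and 2 in TE6. After BRDT-OE 1 of 8 was called lower and 0 higher.

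Among 9 genes of the inhibitor of apoptosis family and its antagonists, 7 were tested each time. XIAP, the protein that XAF1 binds, led the rises after siBRDT in KYSE180 (0.80) and after siTP63 in KYSE180 (0.71) and TE6 (0.70). BIRC5, the mitotic protein survivin, fell after siTP63 in KYSE180 (-2.29) and TE6 (-1.58). All 7 were called after siTP63 in KYSE180, 4 higher and 3 lower. After siBRDT 2 were called higher and 0 lower in KYSE180, and 0 higher and 2 lower in TE6, led by BIRC6 at -0.87. After siTP63 in TE6 1 was higher and 2 lower, and after BRDT-OE 0 were higher and 1, BIRC3, lower at -1.16.

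Downstream of cytochrome c, all 12 genes of the caspase and apoptosome list were tested. ENDOG, a mitochondrial nuclease, rose after siBRDT in KYSE180 (1.22) and TE6 (1.17). After siTP63 ENDOG was called lower in KYSE180 (-1.55) and higher in TE6 (0.66). DFFA, the inhibitor of the caspase-activated nuclease, fell after siTP63 in KYSE180 (-1.69) and TE6 (-0.89). The counts called higher and lower were 2 and 2 after siBRDT in KYSE180, 1 and 2 in TE6, 1 and 3 after siTP63 in KYSE180, 3 and 2 in TE6, and 2 and 2 after BRDT-OE. Of the death receptor pathway (11 genes, 9 or 10 tested), TNFSF10, the ligand TRAIL, fell after siBRDT in KYSE180 (-1.10) and rose after siBRDT in TE6 (0.56) and after siTP63 in KYSE180 (1.241) and TE6 (0.88). After BRDT-OE TNFSF10 was called lower (-1.96 ± 0.59, adjusted p = 0.017). TNFRSF10A, a TRAIL receptor, fell after siTP63 in KYSE180 (-1.10) and TE6 (-1.69) and rose after BRDT-OE (0.58). The counts called higher and lower were 0 and 1 after siBRDT in KYSE180, 1 and 1 in TE6, 1 and 2 after siTP63 in KYSE180, 3 and 3 in TE6, and 3 and 1 after BRDT-OE. The values of ENDOG and TNFRSF10A after siTP63 in KYSE180, of ENDOG and TNFSF10 after siTP63 in TE6 and of TNFSF10 after BRDT-OE lie outside the naming rule and were added after they were seen.

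BBC3, PMAIP1, BAX and BIK are known targets of p53, and BBC3 and PMAIP1 also of the stress factors ATF4 and CHOP, so lists of other targets were read beside them. Of 16 other p53 targets, after siBRDT in KYSE180 0 were called higher and 4 lower (14.5% and 15.8% of all genes), led by the cell cycle inhibitor CDKN1A at -1.32. Their median there was -0.32 against -0.0052 over all genes. The counts called higher and lower were 3 and 2 after siBRDT in TE6 (15.6% and 18.1% of all genes). They were 2 and 6 after siTP63 in KYSE180 (23.6% and 25.7%) and 3 and 5 after siTP63 in TE6 (18.3% and 20.6%). After BRDT-OE they were 4 and 3 of 14 (10.5% and 16%). The same shares of all genes stand beside the counts of the next list. Of 9 ATF4 and CHOP target genes, 7 were called higher after siBRDT in TE6 (CHAC1 at 2.81, a median of 0.72 against -0.04 over all genes). In that comparison PMAIP1 rose and BBC3 was not called (0.005, adjusted p = 0.99). After correction for transcript length and GC content BBC3 was at -0.69 there (adjusted p = 0.011). After BRDT-OE 8 of 9 were called lower (DDIT4 at -2.15, a median of -1.31), in the comparison where PMAIP1 and BBC3 fell. After siTP63 in TE6 6 were higher and 1 lower (CHAC1 at 2.63, DDIT4 at -1.07), while BBC3 rose and PMAIP1 fell. In KYSE180 3 were higher and 1 lower after siBRDT and 3 higher and 2 lower after siTP63. In KYSE150 after siTP63 none of these 6 lists held a called gene, but no gene at all was called there, so this says nothing about the lists. An unadjusted p under 0.05 (limma) was held by 2194 of all 12335 genes there. It was held by 4 of 9 ATF4 and CHOP genes and 4 of 14 p53 targets. It was also held by 4 of 7 genes of the inhibitor of apoptosis list, 2 of 8 of the remaining BCL2 family, 2 of 12 of the caspase list and 2 of 9 of the death receptor pathway.

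In order to rank the members, levels were set on the RPKM scale within each group. BAX led in 8 of the 11 groups, from 48.5 RPKM in TE6 siCont, where it overlapped MCL1 at 47.9, to 172 RPKM in siCont of the KYSE180 TP63 experiment. It also overlapped BCL2L1 in KYSE150 after siTP63, at 69.7 to 101 RPKM against 69.3 to 77.3 RPKM. BCL2L1 led in TE6 after siTP63 (84.8 RPKM, against 49.8 for BAX), and MCL1 led in both groups of the BRDT-OE experiment (91.1 and 88.8 RPKM). BCL2 and XAF1 filled the last 2 places in 10 of the 11 groups. After siTP63 in KYSE180, XAF1 reached 10.8 RPKM and stood above PMAIP1, BCL2L11 and BCL2. BIK and BCL2L11 overlapped in both KYSE180 groups of the BRDT experiment and in both groups of the BRDT-OE experiment, and BIK and BBC3 in TE6 siCont. Among the BH3-only genes per length, PMAIP1 was the leading transcript in TE6 siCont (47.0 ± 5.8% of their summed RPKM) and after siBRDT (66.0 ± 3.3%), and BBC3 after siTP63 (37.6 ± 1.8%, PMAIP1 20.9 ± 1.8%). In the BRDT-OE experiment BBC3 went from 32.5 ± 2.6% to 18.5 ± 1.3%.

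Over the 26 libraries, with levels centred within each table, the genes whose pattern was closest to a member were listed as a description. The points share libraries, controls and table, so no p is given. TIMM13, a mitochondrial import factor, followed BAX most closely (r = 0.99), and MRPL12, a mitochondrial ribosomal protein, was also among the 3 closest (r = 0.98). TMOD3 was closest to MCL1 (r = 0.97), CHST12 to BCL2L1 (r = 0.96), and TMC6 to BBC3 (r = 0.96). STAT2, IFI6 and TRIM21, all interferon-induced, were the 3 closest to XAF1 (r = 0.90, 0.88 and 0.88). XAF1 lay under the filter on low values in TE6 and KYSE150, and its widest change was in the TP63 experiment of KYSE180. Its r values, also that with BIK below, rest largely on that experiment. NRG1 and AREG, both ligands of EGFR family receptors, were closest to BCL2 (r = 0.86 each). AQP3 was closest to PMAIP1 (r = 0.84) and PRSS22 to BIK (r = 0.90). BCL2L11 had no neighbour above 0.80. Among the members themselves the strongest pairs were BIK with XAF1 (r = 0.70), BCL2L1 with BIK (r = 0.67) and BAX with BAK1 (r = 0.65), and in the opposite direction BAK1 with BBC3 (r = -0.71) and BCL2 with BIK (r = -0.70).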

How the data were processed

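RNA-seq libraries of ESCC cell lines were made by the submitters with a TruSeq kit that does not mark strand. Reads were mapped to hg38 with STAR (2.6.0), counted per gene with HTSeq (0.11.2) and normalised with DESeq2 (1.24.0), with versions taken from the submitters' processing notes. The gene annotation and the strand option are not given in the sources used here. The deposited values are a signal, gene counts that the authors divided by 1 size factor per library, separately in each of 5 tables, so that levels of different tables are not on 1 scale. No column lacked a sample (0).

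Since 100% of the values were whole multiples of 1 read within a tolerance of 0.01 read, reads were recovered (7582089 to 19372441 per library), and RPM and RPKM were computed from them. The longest GENCODE 44 transcript gave the length, for 92.5% of symbols. RPM and RPKM rest on library totals and not on the size factors. In the TP63 experiment of KYSE180 the summed normalised values were 1.73e+07 and 1.66e+07 in siCont and 1.21e+07 and 1.15e+07 after siTP63. Falls there are smaller and rises larger in RPM and RPKM than in normalised counts. PMAIP1, not called there, goes from 3.11 to 4.05 RPM. Main tests used limma (3.58.1, R 4.3.3; lmFit, eBayes with trend) on log2(value + 1), for genes with a mean of at least 10, with Benjamini-Hochberg adjustment over all genes. This understates changes of low genes. Each table was fitted alone, the 3 groups of TE6 sharing 1 spread. For differences between lines or experiments, the libraries concerned entered 1 fit. Calls were made at adjusted p under 0.05 with a log2 change no smaller than 0.5, and differences between effects at adjusted p under 0.05 alone. The code was tested on simulated data. Settings changed in turn were the pseudocount (0.1), the filter (none), scaling by upper quartiles, blocking on replicate number, removal of a length and GC trend (splines with 4 degrees of freedom), the 2 groups alone, no fold limit, each library left out, and edgeR (4.0.16) and DESeq2 (1.42.0) on recovered reads.

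All 10 members are given. In other lists the strongest called rise and fall are named among genes whose mean reached 100, and for each member the 3 genes with the closest pattern could be. Some genes that this rule names are not reported here. The members and lists were chosen with earlier results of these data known. The labels do not say that replicates were separate cultures, and p-values then measure only the spread between these libraries, which may be technical. A floor of 3 reads and the counting intervals cover counting error only. Python 3.11.15, pandas 2.3.3, numpy 2.4.6, scipy 1.17.1 and matplotlib 3.10.9 were used.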

Additional observations from a re-analysis of the deposited data

Results flagged for a closer look

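Each result here is a difference between the effects of the same knockdown in a pair of lines, found by limma's test of the difference itself. For siBRDT in KYSE180 against TE6 (41.9% of all genes differed), the differences on the log2 scale were 0.48 for MCL1 (adjusted p = 0.0015), 0.86 for BAK1 (adjusted p = 0.00017), -0.66 for BAX (adjusted p = 0.0019), -1.10 for BBC3 (adjusted p = 0.002) and -1.73 for PMAIP1 (adjusted p = 4.3e-06). PMAIP1 was lower than its controls in all 3 siBRDT libraries of KYSE180 and higher in both of TE6. After correction for transcript length and GC content the differences of BAX and BBC3 missed the threshold (adjusted p = 0.061 and 0.052).

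For siTP63 in KYSE180 against TE6 (55% of all genes differed), they were -1.38 for BCL2L1 (adjusted p = 1.2e-06), 0.82 for MCL1 (adjusted p = 0.00032), -1.54 for BAX (adjusted p = 3.6e-06), -0.54 for BAK1 (adjusted p = 0.022) and -0.65 for BBC3 (adjusted p = 0.043). The differences of BAK1 and BBC3 turned to 0.073 and 0.39 after correction for transcript length and GC content and were not called. Both were also lost without some single libraries. BCL2L1 rose in both lines, so that its difference is one of size. For siTP63 in TE6 against KYSE150 (3.86% of all genes differed), the difference was 1.56 for BCL2L1 (adjusted p = 0.015). This call was lost with blocking on replicate number and without any 1 of the siCont or siTP63 libraries of TE6.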

How the results depend on the processing

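Counts of members called kept within 1.5 times their value under 149 alternatives that kept all libraries and moved further under 13. With no fold limit 4 members in place of 1 were lower after siBRDT in KYSE180, and 2 in place of 0, BAX and BAK1, higher after BRDT-OE. With the length and GC trend removed 2 in place of 1 were lower after siBRDT in TE6, the same 2 higher after BRDT-OE, 2 higher and 2 lower (1 and 4) in the siTP63 difference of KYSE180 from TE6, and 1 in place of 0 lower in KYSE180 and in TE6 against KYSE150. Upper quartiles left 1 of 2 lower after siTP63 in TE6, and no filter gave 2 in place of 1 higher in KYSE180 against TE6 and 1 in place of 0 against KYSE150. The cause was not tested.

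Replicate numbers did not pair the samples. Correlations of same-numbered deviations were 0.153, 0.0047 and 0.178 for siBRDT in KYSE180, 0.015, 0.098 and 0.037 for BRDT-OE, 0.047 for siTP63 in KYSE180, -0.084 to 0.028 in TE6 and -0.70 in KYSE150. The replicate block took the TE6 against KYSE150 count of higher members from 1 to 0, cost BBC3 (siTP63, KYSE180 against TE6, adjusted p = 0.050) and MCL1 (siTP63 against siBRDT, TE6, adjusted p = 0.065) their call, and took the calls after siTP63 in KYSE150 from 0 to 137 genes. A crossed block there, chosen after seeing the data, called 2 members higher, BBC3 and BIK, and 3400 genes.

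Signs turned with the trend removed for BAK1 (-0.081), BBC3 (-0.69) and BIK (-0.21) after siBRDT in TE6, PMAIP1 after siTP63 in KYSE180 (0.013), BAX after siTP63 in TE6 (-0.32) and BCL2L1 after BRDT-OE (0.087). They also turned for the differences of KYSE180 from TE6 of BCL2L11 for siBRDT (-0.051, and -0.016 with upper quartiles) and BAK1 (0.073) and BBC3 (0.39) for siTP63, and of TE6 from KYSE150 of BCL2 (0.081), BAX (-0.17) and BIK (-0.22), with BAK1 at 0.015 under upper quartiles. With edgeR BBC3 after siBRDT in TE6 was -0.00038.

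With 1 library left out, signs turned in these ranges. After siBRDT they were -0.214 to 0.224 for BBC3 and -0.0967 to 0.4 for BCL2 in TE6, and -0.329 to 0.0803 for BIK in KYSE180. After siTP63 they were -0.0519 to 0.153 for BAX and -0.1 to 0.139 for BCL2L11 in TE6, and -0.589 to 0.231 for BAX, -0.0802 to 0.293 for MCL1 and -0.577 to 0.0641 for PMAIP1 in KYSE150. BCL2L1 after BRDT-OE ran from -0.033 to 0.0445, and the siBRDT difference of BCL2L11 between KYSE180 and TE6 from -0.0295 to 0.209. For KYSE180 against KYSE150 they were -0.383 to 0.446 for BBC3, -0.0449 to 0.403 for BCL2L1, -0.2 to 0.882 for BIK, -0.015 to 0.358 for MCL1 and -0.206 to 0.436 for PMAIP1. For TE6 against KYSE150 they were -0.236 to 0.155 for BAK1, -0.181 to 0.639 for BAX, -0.437 to 0.0599 for BCL2 and -0.392 to 0.69 for BIK. Counts ran from 1 to 2 lower after siTP63 in TE6, 0 to 1 higher after BRDT-OE, 3 to 5 lower for siBRDT in KYSE180 against TE6, 2 to 4 lower and 1 to 2 higher for siTP63 there, 0 to 2 lower and 0 to 1 higher for KYSE180 against KYSE150, 0 to 1 lower and 0 to 1 higher for TE6 against KYSE150, and 2 to 4 higher for siTP63 against siBRDT in TE6. Where this left 1 library in a group, it was assumed to vary like the others.

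Over all genes, no fold limit gave 7937 calls in place of 4115 after siBRDT in KYSE180 and 6521 in place of 3386 after BRDT-OE, and siBRDT in TE6 had 2993 in place of 4493 without siCont replicate 2. For siTP63 in KYSE150, with 0, there were 45 with no filter, 726 with the trend removed, 461 with DESeq2 and 242 to 307 with 1 library left out. The 193 genes of KYSE180 against KYSE150 became 0 with the block, 986 with the trend removed, 0 without any 1 of the 4 KYSE180 libraries, 65 and 25 without KYSE150 siCont replicate 1 and 2, and 2932 without KYSE150 siTP63 replicate 1. The 449 of TE6 against KYSE150 became 61 with the block, 1248 with the trend removed, 64 to 75 without any 1 of the siCont or siTP63 libraries of TE6, 277 and 294 without siBRDT replicate 1 and 2, 203 without KYSE150 siCont replicate 1 and 3012 without KYSE150 siTP63 replicate 2. For siTP63 against siBRDT in TE6, 5228 became 3119 and 2618 without siTP63 replicate 1 and 2. Low read numbers limited BCL2, BIK and XAF1.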

Other observations

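The KYSE180 controls of the 2 experiments differed in the balance of the members. In siCont of the BRDT experiment BAX stood at 78.6 RPKM, MCL1 at 55.3 and PMAIP1 at 6.76, and in siCont of the TP63 experiment at 172, 22.1 and 1.64. PMAIP1 gave 31.4 ± 1.4% (n = 3) and 11.4 ± 0.6% (n = 2) of the summed RPKM of the BH3-only genes in these controls. Experiment and table cannot be told apart here, and no test was made.

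Within the effector pair, BAK1 gave 14.8 ± 0.6% of the summed RPKM of BAX and BAK1 in siCont of KYSE180 of the BRDT experiment and 25.0 ± 1.7% after siBRDT (n = 3 each). In TE6 the share went the other way, from 25.1 ± 1.9% to 18.3 ± 3.6% after siBRDT (n = 2 each). BAK1 itself did not fall there, with 16.2 RPKM in siCont and 18.4 after siBRDT, and BAX went from 48.5 to 83.1 RPKM. In the TP63 experiment of KYSE180 the share was 9.14 ± 1.1% in siCont and 13.8 ± 2.5% after siTP63 (n = 2 each). BAK1 itself went from 17.2 to 13.9 RPKM there, and BAX from 172 to 87.9 RPKM.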
